A study of Mus musculus with 6 samples.

Results

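The translation initiation factors of the mouse blastocyst were examined as the protein-coding genes whose GENCODE symbol starts with Eif followed by a digit from 1 to 6. The eIF2 alpha kinases (Eif2ak genes) and the Y-linked eIF2 gamma copy were left out by the same rule. It chose 50 of the 55774 rows of the deposited expression table, 21974 of which are protein-coding genes. The rule itself uses no measured value, although the members were chosen with earlier results of these data known.

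Initiation factors bring the small ribosomal subunit, the initiator methionyl-tRNA and the mRNA together at the start codon. eIF2 carries the initiator tRNA as a complex with GTP, and eIF2B recharges eIF2 with GTP after each round. The mRNA is recruited through its cap by eIF4F, which joins the cap-binding protein eIF4E, the scaffold eIF4G and the RNA helicase eIF4A, while the eIF4E-binding proteins hold eIF4E away from the scaffold until mTOR phosphorylates them. In the preimplantation embryo, protein synthesis first runs on maternal mRNAs and then on transcripts of the embryo itself.

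Wild-type embryos taken at an early cleavage stage from the oviducts of ICR mice were cultured to the blastocyst stage in CZB medium with extracellular vesicles of human Fallopian tube fluid. In the oEV-EMT group the vesicles came from women with endometriosis. In the oEV-ctrl group they came from women whom the sample labels describe as having uterine fibroids, whereas the methods of the study name another gynaecological condition without endometriosis. Each group had 3 libraries of polyadenylated RNA from 10 blastocysts each, and blastocysts cultured without vesicles are not among them. The labels do not say whether the 3 pools of a group were separate cultures or received vesicles of different donors, so every p-value measures only the spread between these libraries. Human vesicles on mouse embryos are a model across species, and a pool of whole blastocysts mixes trophectoderm, epiblast and primitive endoderm, in which fewer cells of a type and less RNA per cell cannot be told apart.

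The unit is FPKM (fragments of a transcript, per kilobase of its length and per 1000000 fragments), and read totals are not known. Summed FPKM ranged from 1293175 to 1355101 among oEV-EMT libraries and from 1345866 to 1551567 among oEV-ctrl libraries, and from 15.3% to 31.5% of a sum belonged to a single unannotated row. For the 11924 genes that reached an FPKM of 1 in 3 or more libraries, the median log2 fold change (oEV-EMT minus oEV-ctrl, log2(FPKM + 1)) was 0.17. With median-of-ratios scaling between libraries it was 0.012, so members are also given relative to the 0.17. The log2 fold changes of 10 of the tested members were above 0 as deposited and below 0 after this scaling, namely those of Eif1a, Eif1ad, Eif2s1, Eif3b, Eif3d, Eif3g, Eif3m, Eif4b, Eif4e2 and Eif4g1. All 6 trophectoderm markers were detected, with sums of 3097, 4716 and 3756 in oEV-EMT and 4808, 3059 and 3878 in oEV-ctrl. The 5 epiblast markers were also all detected, and their sums of 102.6, 83.7 and 81.7 in oEV-EMT lay above those of 38.7, 42.2 and 61.6 in oEV-ctrl, with Nanog, Pou5f1 and Fgf4 above in every library. The groups overlapped in Sox2 and Klf2, the other epiblast markers. The part of this difference in the results on initiation factors was not tested. All 4 primitive endoderm markers were detected, and their sums ranged from 26.7 to 40.9 and overlapped between the groups. Markers of oocytes (Oosp1 at 0), of cumulus or oviduct cells (Amh and Foxj1 at 0) and of blood (Hbb-bs and Ptprc at 0) summed to at most 2.22.

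Sequence comes before the values, since it decides how far some of the values belong to a single gene. Eif4a1, the main eIF4A helicase and the member with the largest difference between the groups, has a processed pseudogene on chromosome 1, Eif4a-ps4, which is a near copy of part of its mRNA. Both were read from GENCODE M21 on GRCm38. Over 1218 aligned bases they had 1 mismatch (identity 99.9%), and 95.7% of all 50-base stretches of the pseudogene also occurred in Eif4a1 transcripts. The window around the mismatch is given in coding exon 6 of Eif4a1 (chr11:69668694-69668753, minus strand) and in the single exon of Eif4a-ps4 (chr1:60704446-60704505, plus strand). It shows how little sequence within the aligned bases could assign a read to either gene, and the capital letter marks the base that differs.
Eif4a1: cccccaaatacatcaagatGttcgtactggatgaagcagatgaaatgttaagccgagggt
Eif4a-ps4: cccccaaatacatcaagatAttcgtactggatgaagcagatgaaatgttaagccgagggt

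The promoters of the family were looked at for CACGTG, the E-box bound by MYC and its relatives, which are known regulators of translation genes. The motif reads the same on both strands. RefSeq promoter windows on GRCm38.p6 were matched by symbol for 38 of the 50 members. The 250 bases before a transcription start held the motif in 9 of the 38, or 23.7%, against 6.86% of 27025 genes. The cAMP response element TGACGTCA (1.77% of genes) and TGATGCAA, an element of C/EBP and ATF heterodimers (0.918% of genes), were searched on both strands and were in 0 of the 38. The 9 members were Eif1b, Eif3f, Eif3k, Eif4a1, Eif4e, Eif4g1, Eif4h, Eif5a and Eif5a2. The windows of the eIF4F subunits and of the helicase cofactor Eif4h are given with the motif in capitals, because all 3 kinds of eIF4F subunit have a gene among them. The Eif4a1 window is at chr11:69672597-69672622 on the minus strand and the motif starts 189 bases before the transcription start. Those of Eif4e are at chr3:138527194-138527219 and chr3:138527030-138527055 on the plus strand (64 and 228 bases), that of Eif4g1 is at chr16:20672663-20672688 on the plus strand (54 bases) and that of Eif4h is at chr5:134639490-134639515 on the minus strand (96 bases).
Eif4a1: atcgcctccgCACGTGtaaaggtgct
Eif4e, near: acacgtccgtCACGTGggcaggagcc
Eif4e, far: cgccagcgacCACGTGatcacttttt
Eif4g1: cagtgggtgtCACGTGatggggcgga
Eif4h: gccgccgcacCACGTGggccgcagag

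The members with this motif did not share a direction between the groups. Their log2 fold changes, described in detail further on, ran from -0.27 for Eif3k to 1.04 for Eif4a1, with 0.46 for Eif4e, 0.41 for Eif4h and 0.01 for Eif4g1. Binding of any factor to these windows was not measured.

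Of the 50 members, 47 reached an FPKM of 1 in 3 or more libraries and were tested. The 3 others were Eif4e1b, a cap-binding protein known from oocytes, Eif4e3 and Eif5a2. Eif4e1b was at 0 in 5 libraries and at 0.0560 in oEV-ctrl 1. Eif4e3 ranged from 0.259 to 0.799 and Eif5a2 from 0.207 to 0.368. On the FPKM scale, which is per length and allows genes to be set side by side, the mean over the 6 libraries spanned from 2.02 for Eif4ebp3 to 1329 for Eif2s2 among the tested members. Eif2s2, the beta subunit of eIF2, ranked 116th of all rows of the table. Eif5a followed with 549, and Eif3m, Eif3i and Eif4a1 came next with 306, 289 and 286. The scaffolds Eif4g1 and Eif4g3 were much lower than the other eIF4F subunits, with means of 12.8 and 3.85. Summed over all 50 members, initiation factors made up 0.791%, 0.828% and 0.751% of the FPKM of annotated genes in oEV-EMT and 0.690%, 0.619% and 0.736% in oEV-ctrl. The groups were narrowly apart in this share, whereas the summed FPKM of the members overlapped, from 5862 to 6338 in oEV-EMT and from 5241 to 5897 in oEV-ctrl.

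**Figure D1:**
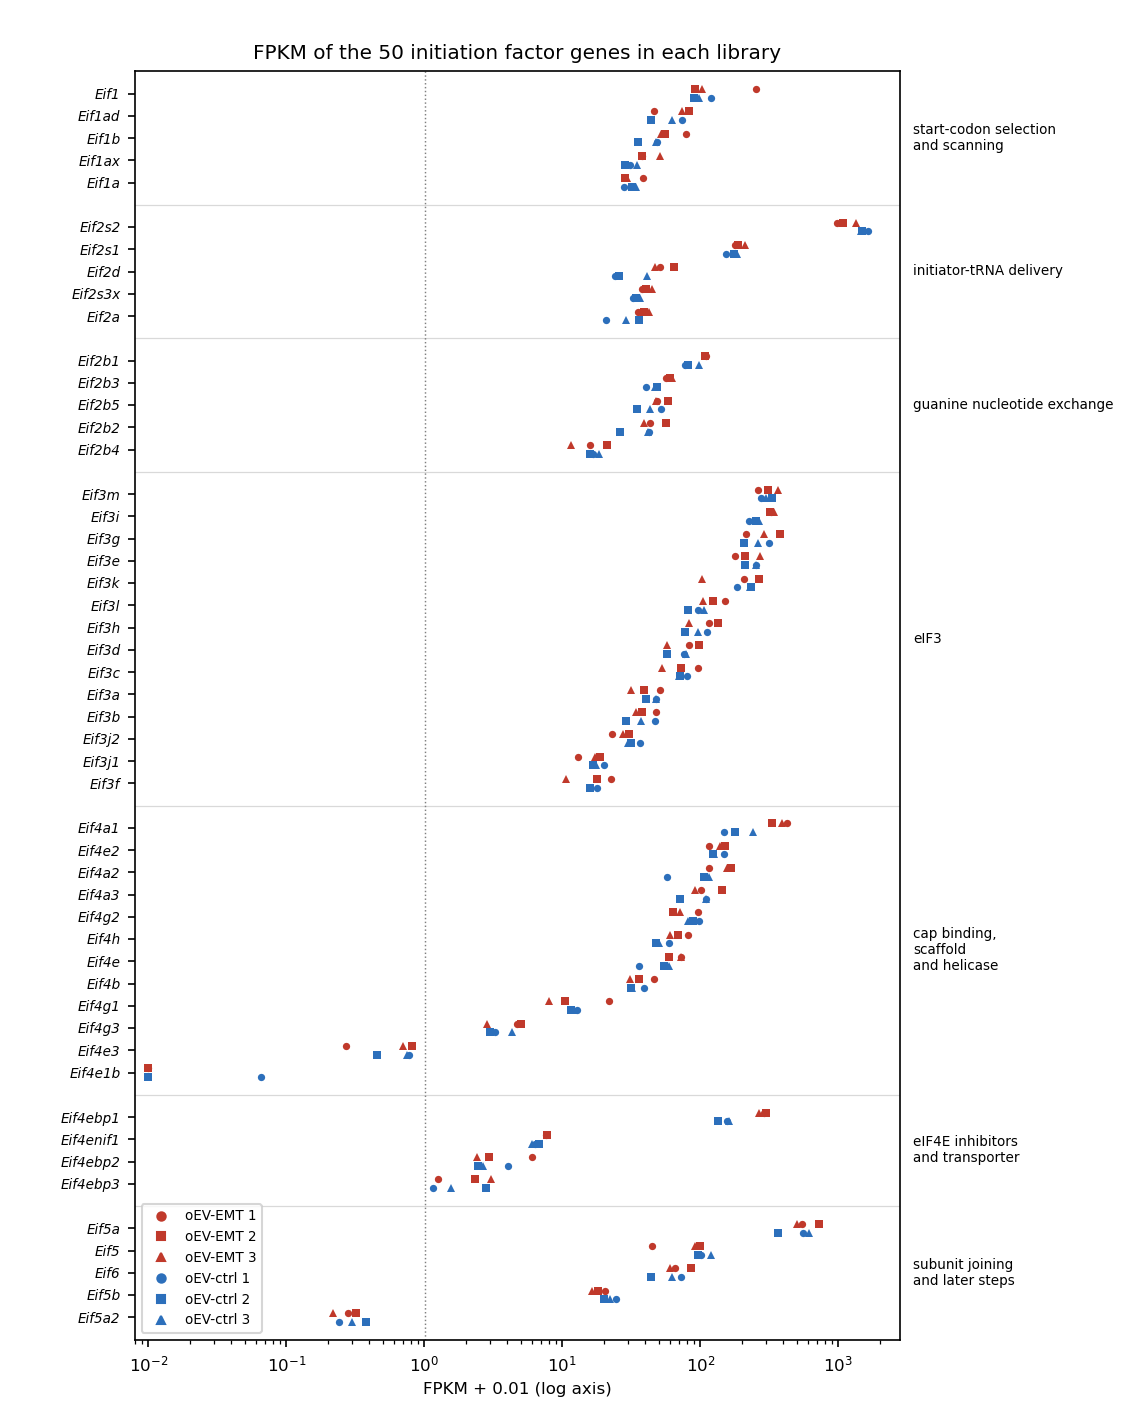
FPKM (plus 0.01, log axis) of the 50 initiation factor genes in each of the 6 libraries, ordered within role groups by mean FPKM, with red symbols for oEV-EMT and blue for oEV-ctrl. The dotted line marks an FPKM of 1. Eif2s2 stands at the top with values from 983 to 1635, and Eif4e1b, Eif4e3 and Eif5a2 lie below the line in all libraries.

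The comparison asks whether blastocysts that developed with oEV-EMT differ from those with oEV-ctrl. No initiation factor passed an adjusted p-value of 0.05 in limma, and neither did any other gene (0% of the 11924 tested). The study itself compared these groups with DESeq2 and reported differentially expressed genes. The deposited values are not counts, so limma on log2(FPKM + 1) took the place of that test, which was not repeated. With limma's library quality weights 1 of the 47 tested members passed, Eif4ebp1, and 151 of all 11924 genes tested. With equal weights the smallest adjusted p was 0.105 among the members, for Eif4ebp1, and 0.0934 among all genes. At an unadjusted p below 0.05, 5 members had higher levels in oEV-EMT and 1 had a lower level. These are 10.6% and 2.13% of the 47, against 12.8% and 2.55% of all genes tested, so both shares were near those of the whole table. The 5 were Eif4a1, Eif4ebp1, Eif2d, Eif4a2 and Eif3i, and the 1 was Eif2s2. Without oEV-EMT 2 or without oEV-ctrl 1 there were 3 higher instead of 5 (6.38% each, all genes 9.31% and 7.88%). The lower count was 0 without oEV-EMT 1 and without each of the oEV-ctrl libraries (all genes 1.69% to 4.84%).

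In 11 members the lowest oEV-EMT library exceeded the highest oEV-ctrl library, and in 1 member the order was the opposite, which are 23.4% and 2.13% of the members against 18.1% and 4.34% of all genes. With 3 libraries against 2 the lower count was 5 without oEV-EMT 1 (10.6%, all genes 12.6%), 4 without oEV-EMT 2 (8.51%, all genes 6.76%), 3 without oEV-ctrl 2 (6.38%, all genes 6.54%) and 2 without oEV-ctrl 3 (4.26%, all genes 5.89%). Besides Eif4a1, Eif4ebp1, Eif2d and Eif3i, the 11 were Eif1b, Eif1ax, Eif2s3x, Eif2b1, Eif2b3, Eif4h and Eif4enif1, and the 1 was Eif2s2. Median-of-ratios scaling changed this split. After it, 5 members lay above without overlap (10.6%, all genes 9.94%) and 5 below (10.6%, all genes 10.2%), and at an unadjusted p of at most 0.05 there were 3 above (6.38%, all genes 6.53%) and 2 below (4.26%, all genes 6.42%). The 5 above were Eif4a1, Eif4ebp1, Eif2d, Eif3i and Eif3l, and the 5 below were Eif2s2, Eif5, Eif5b, Eif3a and Eif3j2. The first 3 named on the upper side and Eif2s2 and Eif5b on the lower side had the unadjusted p. The median log2 fold change of the 47 members was 0.18, which is 0.0067 above the median of all genes, with 25 members on the upper side of it and 22 on the lower.

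**Figure D2:**
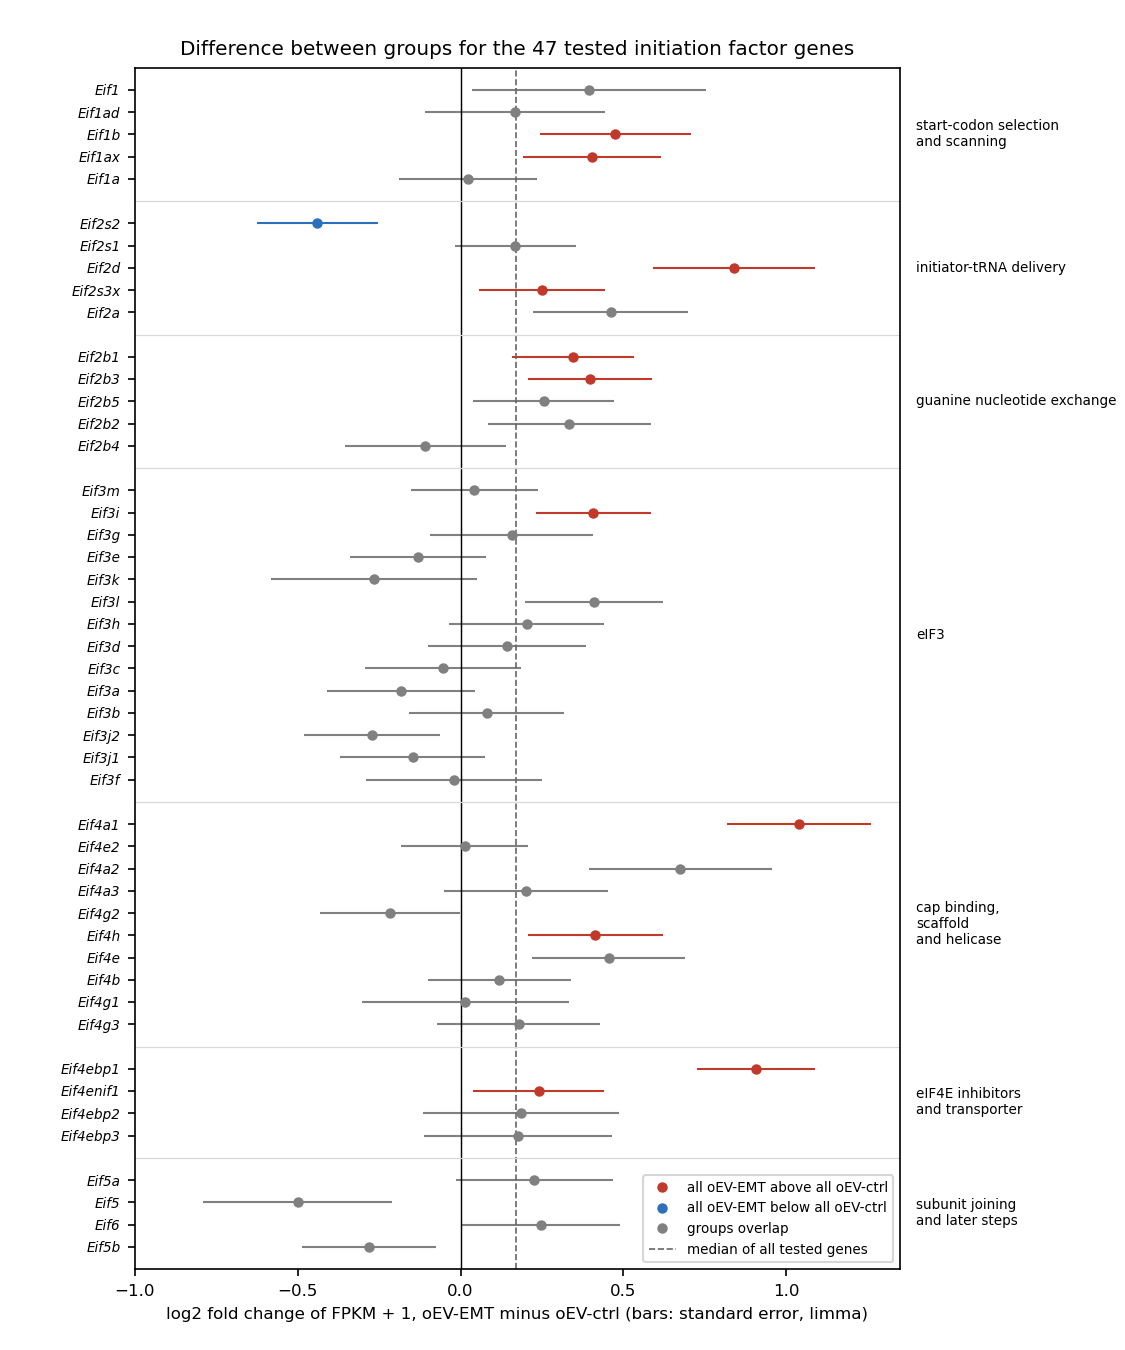
Log2 fold change of FPKM + 1 (oEV-EMT minus oEV-ctrl) for the 47 tested initiation factors, with the standard error from limma as bars. The dashed line marks the median of all 11924 genes at 0.17. Eif4a1, Eif4ebp1 and Eif2d lie furthest to the right, at 1.04, 0.91 and 0.84, and Eif5 and Eif2s2 furthest to the left, at -0.50 and -0.44.

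The mRNA encoding the eIF4A helicase showed the largest difference. eIF4A unwinds the leader of the mRNA ahead of the scanning ribosome and is the catalytic part of eIF4F. Eif4a1 (ENSMUSG00000059796, chr11:69666936-69672423, minus strand) had FPKM of 428, 332 and 389.5 in oEV-EMT and 148, 177 and 239.7 in oEV-ctrl. The lowest oEV-EMT library was above the highest oEV-ctrl library. The means were 383 ± 48.3 and 188 ± 46.8 (SD, n = 3 each), a ratio of 2.03. The log2 fold change was 1.04 with a standard error of 0.22, and it did not pass (limma, unadjusted p = 0.000773, adjusted p = 0.118). It was 0.84 after median-of-ratios scaling and between 0.88 and 1.23 when any library was left out.

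The reads behind this value could come from more than 1 gene. The pseudogene Eif4a-ps4 (chr1:60703932-60705149, plus strand) had FPKM of 340.0, 306 and 361 in oEV-EMT and 134, 159 and 204 in oEV-ctrl and was also higher in all oEV-EMT libraries. Within the 1218 aligned bases, at 99.9% identity, reads of the pseudogene and of Eif4a1 can hardly be told apart. Of the 50-base stretches of Eif4a1, 24.2% occur in Eif4a-ps4 and 28.4% in any other gene, so this limit covers a part of Eif4a1. How reads from the shared part were divided between the genes is not known. Summed over Eif4a1 and the 6 genes that share at least 10% of their or its 50-base stretches, the log2 difference was again 1.04, of which Eif4a1 supplied 52.7% of the FPKM. The sum thus had the same difference as Eif4a1 alone.

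Eif4a2, the second eIF4A helicase, also had an unadjusted p below 0.05, but its libraries overlapped. It had 115, 166 and 155 in oEV-EMT and 57.7, 107 and 116 in oEV-ctrl, with oEV-ctrl 1 far below all other libraries. The means were 145 ± 26.7 and 93.6 ± 31.5, with a log2 fold change of 0.68 ± 0.28 (SE; limma, adjusted p = 0.293). Without oEV-ctrl 1 it was 0.36. Within each library Eif4a1 exceeded Eif4a2, from 1.65 to 3.69 times, and this ratio did not separate the groups (log2 difference 0.36, exact permutation p = 0.5).

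Eif4ebp1 encodes the eIF4E-binding protein best known as an mTOR target, and it was the member with the smallest p. The gene (ENSMUSG00000031490) lies at chr8:27260329-27276674 on the plus strand. Its FPKM were 288, 298 and 265 in oEV-EMT and 157, 135 and 160.1 in oEV-ctrl. The libraries within a group lay close together, and the groups stood far apart. The means were 283 ± 17.1 and 151 ± 13.6, a ratio of 1.88, and the log2 fold change was 0.91 with a standard error of 0.18. It did not pass (limma, unadjusted p = 0.000472, adjusted p = 0.105), except that with limma's library quality weights the adjusted p was 0.0336. The fold change was 0.71 after median-of-ratios scaling and between 0.83 and 0.96 with any library left out. No other gene shared at least 10% of the 50-base stretches with it.

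The other eIF4E inhibitors were expressed far below Eif4ebp1 and showed smaller differences. Eif4ebp2, a close relative, had 6.01, 2.92 and 2.41 in oEV-EMT and 4.04, 2.45 and 2.65 in oEV-ctrl. Its log2 fold change of 0.19 became -0.13 without oEV-EMT 1. Eif4ebp3 ranged from 1.14 to 3.02, and 65.5% of its stretches lie within an overlapping protein-coding gene, so its level is uncertain. Eif4enif1, the transporter that takes eIF4E into the nucleus, had 7.55, 7.74 and 7.72 against 6.28, 6.75 and 6.01, a small shift without overlap (0.24 ± 0.20, SE) that lay 0.068 above the median of all genes.

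Among their partners in eIF4F, Eif4e had 72.1, 59.0 and 72.4 in oEV-EMT and 36.0, 54.6 and 59.8 in oEV-ctrl. The groups overlapped in a single pair of libraries (log2 fold change 0.46 ± 0.24, SE; limma, adjusted p = 0.381), and without oEV-ctrl 1 the fold change was 0.24. A pseudogene, Gm7327, has 55.7% of its stretches in Eif4e. It had 24.0, 21.7 and 24.9 in oEV-EMT and 13.4, 16.6 and 16.3 in oEV-ctrl. Eif4e held 75.1% of the FPKM summed over the genes that share its sequence. The sum ran from 80.9 to 97.2 in oEV-EMT and from 49.4 to 76.1 in oEV-ctrl (log2 difference 0.49). The ratio of Eif4ebp1 to Eif4e within a library ran from 2.45 to 4.98, and its log2 difference between the groups was 0.45 (exact permutation p = 0.3). The ratio thus overlapped between the groups.

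Eif4g1, the main scaffold, had 21.7, 10.4 and 8.04 in oEV-EMT and 12.9, 11.6 and 12.1 in oEV-ctrl. Its log2 fold change was 0.01, and it was -0.17 after median-of-ratios scaling and -0.37 without oEV-EMT 1. Eif4g2, which serves initiation without the cap-binding protein, had 96.9, 63.8 and 71.8 against 97.2, 88.5 and 81.3 (-0.22 ± 0.21, SE). The helicase cofactor Eif4h had 81.9, 68.8 and 60.4 against 59.5, 47.5 and 50.1 and did not overlap (0.41 ± 0.21, SE). After median-of-ratios scaling its groups overlapped (0.22). Eif4e2, a cap-binding protein that does not join eIF4F, differed by 0.01 (-0.18 after median-of-ratios scaling) and Eif4b by 0.12 (-0.072). Eif4a3 and Eif4g3 differed by 0.20 and 0.18. Over the 10 tested members of this group the median was 0.018 above that of all genes, with 6 above and 4 below it.

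**Figure D3:**
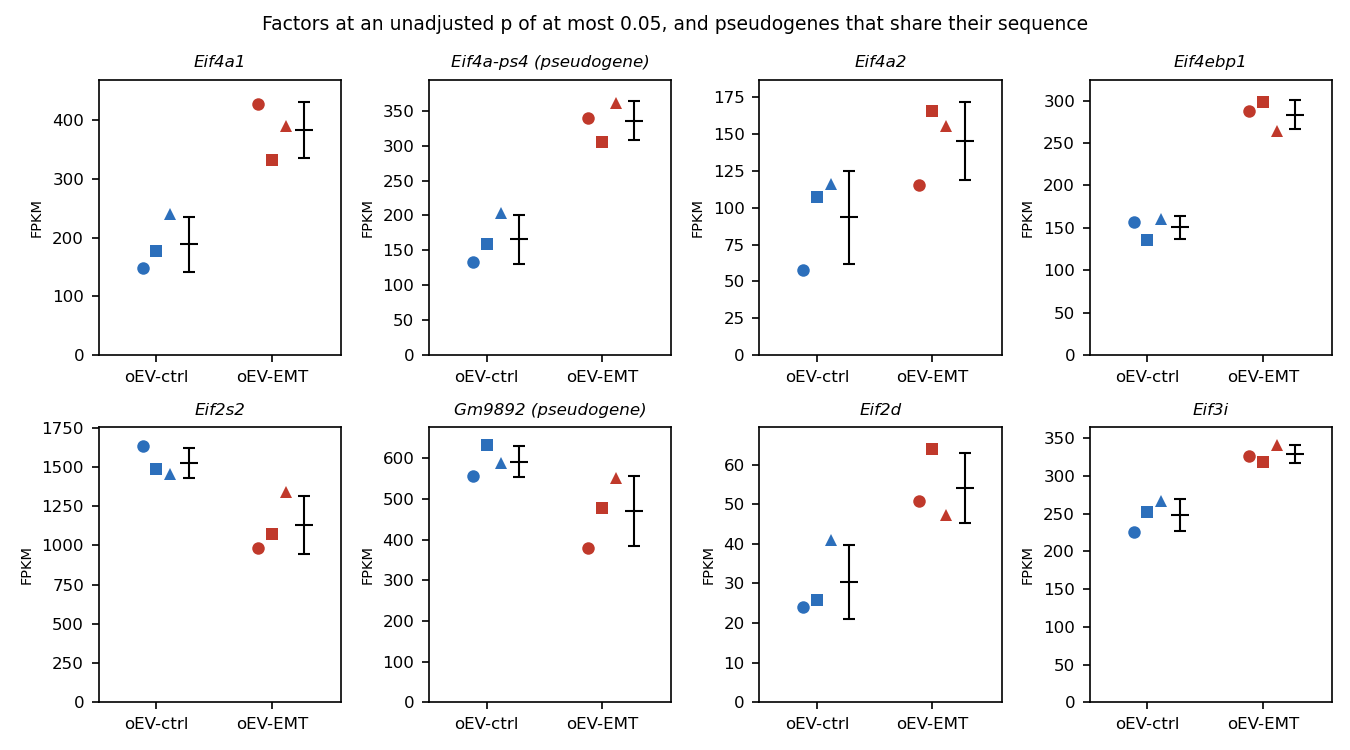
FPKM (linear axes from 0) of the 6 factors with an unadjusted p of at most 0.05 and of the pseudogenes Eif4a-ps4 and Gm9892, with 1 symbol per library and the mean ± SD of each group (n = 3) as bars. Eif4a-ps4 is higher in oEV-EMT like Eif4a1, Gm9892 is lower like Eif2s2, and Eif4a2 is the single gene shown whose groups overlap.

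The most abundant factor went the other way. Eif2s2 (ENSMUSG00000074656, chr2:154871410-154892935, minus strand) encodes eIF2 beta, one of the subunits that hold the initiator tRNA and contact eIF5 and eIF2B. It had 983, 1075 and 1339.8 FPKM in oEV-EMT and 1635, 1488 and 1453 in oEV-ctrl. All oEV-EMT libraries were lower, with oEV-EMT 3 closest to the oEV-ctrl libraries. The means were 1133 ± 185 and 1525 ± 96.5, a ratio of 0.743. The log2 fold change was -0.44 with a standard error of 0.19 (limma, unadjusted p = 0.0382, adjusted p = 0.296), and it was -0.64 after median-of-ratios scaling and between -0.57 and -0.34 with any library left out.

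Eif2s2 too has an expressed pseudogene, Gm9892 (chr8:52196065-52197056, minus strand), and 73.5% of the stretches of Gm9892 occur in Eif2s2. Gm9892 had 380.2, 478 and 552 in oEV-EMT and 556, 632 and 589 in oEV-ctrl, again without overlap. The log2 difference of the sum was -0.41, close to that of Eif2s2.

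The other eIF2 subunits had log2 fold changes above 0 in the deposited values. Eif2s1, eIF2 alpha, whose phosphorylation slows initiation under stress, had 178, 186 and 212 in oEV-EMT and 154, 174 and 184 in oEV-ctrl (0.17 ± 0.18, SE), and after median-of-ratios scaling it differed by -0.026. Eif2s3x, the X-linked eIF2 gamma, had 38.0, 40.2 and 44.9 against 32.3, 34.2 and 36.4. Its groups did not overlap, with a log2 fold change of 0.25 ± 0.19 (SE), which lay 0.080 above the median of all genes. After median-of-ratios scaling Eif2s3x differed by 0.061 and its groups overlapped. Of the stretches of a pseudogene, Gm2223, 100% occur in Eif2s3x, and 34.6% of those of Eif2s3x occur in Gm2223. Eif2s3x held 88.5% of their summed FPKM. Mean FPKM of Eif2s2 was 1329 against 181 for Eif2s1 and 37.7 for Eif2s3x. The protein complex holds the subunits in equal numbers, but protein was not measured, and the Y-linked eIF2 gamma copy was left out by rule.

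Eif2d, which delivers tRNA to the ribosome without GTP and acts in reinitiation, was higher in oEV-EMT. This gene (ENSMUSG00000026427, chr1:131153181-131187658, plus strand) had 50.8, 64.0 and 47.2 in oEV-EMT and 24.0, 25.9 and 41.0 in oEV-ctrl. The groups did not overlap, and oEV-ctrl 3 was closest to the oEV-EMT libraries. The means were 54.0 ± 8.81 and 30.3 ± 9.33 and the log2 fold change was 0.84 with a standard error of 0.25 (limma, unadjusted p = 0.00682, adjusted p = 0.183). It was 0.65 after median-of-ratios scaling. Eif2a, which can also bind the initiator tRNA and is not the alpha subunit of eIF2, had a log2 fold change of 0.46 with overlapping groups. Summed with the genes that share its sequence, the log2 difference was 0.27.

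Of the 5 subunits of the exchange factor eIF2B, 4 exceeded the median of all genes and Eif2b4 was under it. Eif2b1, the alpha subunit and the highest of them, had 110.2, 107 and 108 in oEV-EMT and 77.9, 81.4 and 97.7 in oEV-ctrl (log2 fold change 0.35 ± 0.19, SE). Its oEV-EMT libraries lay close to each other and above all oEV-ctrl libraries. Eif2b3 did not overlap either (0.40 ± 0.19, SE). Eif2b5, the catalytic subunit, had 48.9, 58.3 and 47.8 against 52.2, 35.0 and 43.3 (0.26), with overlap. Eif2b2 and Eif2b4 had log2 fold changes of 0.33 and -0.11. Neither Eif2b1 nor Eif2b3 kept separate groups after median-of-ratios scaling. The within-library ratio of Eif2s1 to Eif2b5, substrate to exchange enzyme, ran from 2.91 to 4.87 and differed by -0.086 on the log2 scale (exact permutation p = 0.8).

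For start-codon selection, eIF1 and eIF1A keep the scanning complex open until the start codon is found. Eif1 had 255, 90.8 and 103 in oEV-EMT and 119.8, 89.3 and 97.9 in oEV-ctrl. A single library, oEV-EMT 1, stood far above all others, and the log2 fold change of 0.39 became -0.067 without it. Eif1 has many pseudogenes, and 12 genes shared at least 10% of stretches with it, but Eif1 held 83.0% of their summed FPKM. Its paralogue Eif1b had 78.1, 55.2 and 52.2 against 48.5, 35.6 and 47.6, again highest in oEV-EMT 1 but without overlap (0.48 ± 0.23, SE; limma, adjusted p = 0.36). After median-of-ratios scaling the groups of Eif1b overlapped (0.28).

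The eIF1A pair differed from each other in their values. Eif1ax, the X-linked gene, had 37.9, 38.0 and 51.0 in oEV-EMT and 31.1, 28.4 and 35.0 in oEV-ctrl (0.40 ± 0.21, SE), without overlap. With median-of-ratios scaling its groups overlapped (0.21). Eif1a, the autosomal gene, had 38.4, 28.4 and 29.3 against 27.8, 32.2 and 34.0 (0.02), and with median-of-ratios scaling it differed by -0.17. Eif1ad differed by 0.17 (-0.026 after median-of-ratios scaling), and 13.2% of its stretches lie in the neighbouring gene Banf1. The median of the 5 genes, the value of Eif1 itself, was 0.22 above that of all genes, and it was 0.16 above without oEV-EMT 1 and 0.052 above without oEV-EMT 3.

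eIF3, the largest initiation factor, holds the small subunit and receives the mRNA from eIF4G. Its 14 genes were all tested, and 3 exceeded the median of all genes and 11 did not, with a group median of -0.16 relative to it. The log2 fold changes ran from -0.27 for Eif3j2 to 0.41 for Eif3l. Eif3i (ENSMUSG00000028798, chr4:129591960-129600648, minus strand) was the single subunit with an unadjusted p below 0.05. It had 327, 319 and 341 in oEV-EMT and 226, 252 and 267 in oEV-ctrl, tight groups without overlap. The means were 329 ± 11.4 and 248 ± 21.1, and the log2 fold change was 0.41 with a standard error of 0.18 (limma, unadjusted p = 0.042, adjusted p = 0.306). After median-of-ratios scaling it was 0.21.

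Eif3m, the most abundant eIF3 subunit, had 262, 307 and 367 in oEV-EMT and 274, 329.6 and 299 in oEV-ctrl, which overlapped fully (0.04 as deposited, -0.15 after median-of-ratios scaling). Eif3a, the core scaffold of the complex, had 51.0, 38.9 and 31.5 against 47.4, 40.7 and 47.9 (-0.18 ± 0.23, SE). Eif3k spread from 103 to 266 within oEV-EMT, so a difference in it could not be seen at this spread (-0.27 ± 0.32, SE). Eif3j1 and Eif3j2 share reads by sequence, since 90.8% of the stretches of Eif3j2 occur in Eif3j1, and their log2 fold changes of -0.15 and -0.27 are not independent values.

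The last steps are GTP hydrolysis by eIF2 with the help of eIF5, subunit joining by eIF5B and the release of eIF6 from the large subunit. Eif5 had 45.0, 99.9 and 90.9 in oEV-EMT and 102, 96.3 and 119.6 in oEV-ctrl. The low value was that of oEV-EMT 1, the library in which Eif1 was high. The log2 fold change of -0.50 ± 0.29 (SE) was -0.15 without it. Within libraries the ratio of Eif5 to Eif1, factors with opposed effects on the stringency of start-codon selection, ran from 0.180 in oEV-EMT 1 to 1.22, and the log2 difference of -0.90 did not separate the groups (exact permutation p = 0.5). It was -0.079 without oEV-EMT 1 and -1.38 without oEV-EMT 2.

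Eif5b had 20.4, 18.0 and 16.3 in oEV-EMT and 24.6, 20.2 and 22.3 in oEV-ctrl. It overlapped as deposited by a single pair of libraries (-0.28 ± 0.21, SE) and had -0.47 after median-of-ratios scaling, where the groups were separate. Of its stretches, 14.3% lie in Rev1 on the opposite strand, so part of its FPKM could belong to that gene. Eif5a, the hypusine-containing factor that helps the ribosome past difficult peptide bonds, had 542, 729.6 and 498 against 551, 365 and 611 (0.23 ± 0.24, SE). Eif6 had 65.5, 85.8 and 60.0 against 72.9, 44.0 and 62.2 (0.25). Both had their highest value in oEV-EMT 2 and their lowest in oEV-ctrl 2. Without oEV-ctrl 2 the log2 fold changes were 0.0035 for Eif5a and 0.048 for Eif6, and without oEV-EMT 2 they were 0.063 and 0.10.

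**Figure D4:**
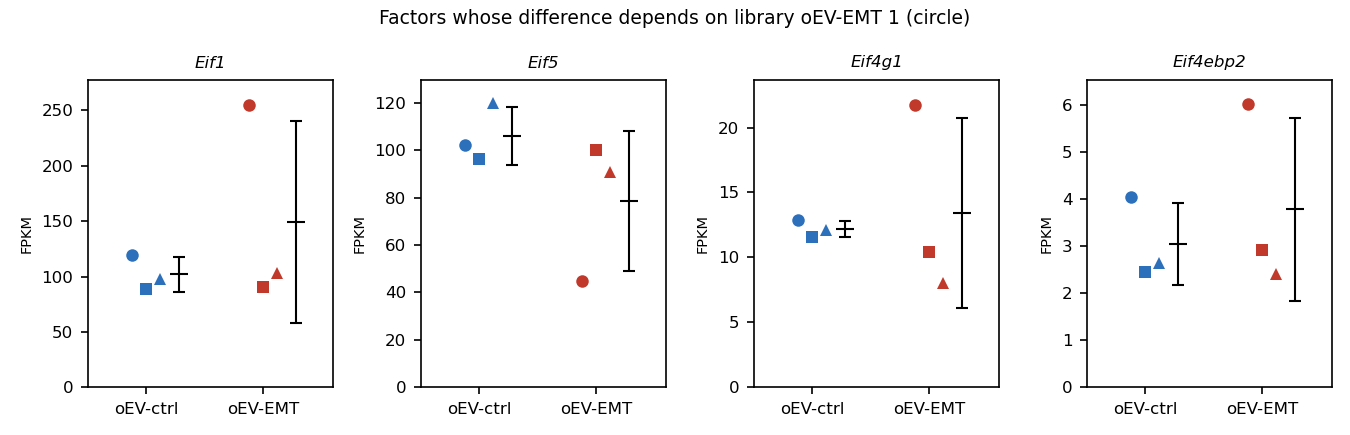
FPKM (linear axes from 0) of Eif1, Eif5, Eif4g1 and Eif4ebp2 in the 6 libraries, with the mean ± SD of each group (n = 3) as bars and a circle for replicate 1, a square for 2 and a triangle for 3. In each panel oEV-EMT 1 is the highest or, for Eif5, the lowest library, and the other 5 lie closer together.

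The libraries differed in how often they held the extreme value of a member. oEV-EMT 1 held the highest value in 14 of the 47 members and the lowest in 7, oEV-EMT 2 the highest in 17 and the lowest in 1, and oEV-EMT 3 each in 10. oEV-ctrl 2 held the highest value in 0 and the lowest in 16, and oEV-ctrl 1 in 5 and 12. Over all genes tested oEV-EMT 1 was highest in 37.4%, against 29.8% of the members, and oEV-EMT 2 in 21.5%, against 36.2% of the members. The others were highest in 21.3% (oEV-EMT 3, all genes 16.6%), 10.6% (oEV-ctrl 1, all genes 10.5%), 0% (oEV-ctrl 2, all genes 7.3%) and 2.13% (oEV-ctrl 3, all genes 6.8%). The lowest value was in oEV-ctrl 2 for 34% of the members (all genes 24.7%) and in oEV-ctrl 1 for 25.5% (all genes 29.2%). It was in oEV-EMT 1 to 3 for 14.9%, 2.13% and 21.3% (all genes 11%, 9.67% and 19.5%) and in oEV-ctrl 3 for 2.13% (all genes 5.81%). These counts use the deposited values without scaling, and the median-of-ratios factors ran from 0.910 in oEV-ctrl 1 to 1.18 in oEV-EMT 1.

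The 8 ratios of paired factors, taken on FPKM + 1, did not separate the groups. They depend little on the scaling between libraries where both genes are far above 1 FPKM. Eif5a2 ranged from 0.207 to 0.368, so its ratio mainly followed the level of Eif5a. Eif4ebp2, from 2.41 to 6.01, is affected to a lesser extent. Their exact two-sided permutation p ranged from 0.3 to 0.9, where 3 libraries against 3 cannot go below 0.1, and the adjusted p over the 8 pairs was 0.9 for each. Besides those given above, Eif4ebp2 to Eif4e differed by -0.27, Eif4g1 to Eif4g2 by 0.23, Eif5a to Eif5a2 by 0.26 and Eif1 to Eif1b by -0.081 on the log2 scale.

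The genes of elongation, release, poly(A) binding and the regulation of initiation were counted in the same way. Of 42 listed, 39 were tested and 0 passed an adjusted p of 0.05 in limma. Of these, 3 had higher levels in oEV-EMT at an unadjusted p below 0.05 (7.69%, all genes 12.8%) and 0 had lower levels (all genes 2.55%). Relative to the median of all genes, 13 of the 39 lay above it. The 3 were Eefsec, the selenocysteine elongation factor, Mtif2, the mitochondrial initiation factor, and Dhps, the first enzyme of hypusine synthesis on eIF5A, each with a log2 fold change of 0.50. Dhps had 52.7, 52.8 and 52.3 FPKM in oEV-EMT and 41.9, 31.7 and 37.8 in oEV-ctrl, which did not overlap. The 13 tested kinases and regulators, among them Mtor, Rptor and the eIF2 alpha kinases Eif2ak1, Eif2ak3 and Eif2ak4, had a median of 0.075, and 0 of them had an unadjusted p below 0.05. The groups did not overlap in 4 of the 39 on the higher side (10.3%, all genes 18.1%), which were Larp1, Eefsec, Mtif2 and Dhps, and in 2 on the lower side (5.13%, all genes 4.34%), Eef1e1 and Gspt1.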

How the data were processed

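Per the labels, 6 libraries of polyadenylated RNA from pools of 10 blastocysts were made with a TruSeq kit, and the submitters' processing notes name StringTie and mm10. The aligner and the program that computed the values are not given in the sources used here. The authors deposited 1 value per gene and library. TPM is the unit named in the study's methods, but every library sums to more than 1000000, so the deposited values were taken as FPKM (fragments per kilobase and per 1000000 fragments). All 6 sample columns were used (0 left out). Identifiers were matched to GENCODE M21 (GRCm38) for 55227 of 55774 rows, while 260 Ensembl identifiers and 287 new_gene entries were not matched. FPKM keep no read totals, so depth is unknown and no counting interval was computed.

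The fit used limma 3.58.1 in R 4.3.3 on log2(FPKM + 1), with a trended and robust variance, no covariates and 3 libraries against 3. It covered genes that reached an FPKM of 1 in 3 or more libraries, and Benjamini-Hochberg adjustment ran over all of them. Fold changes on this scale understate those of low genes. The procedure was tested on simulated data. For ratios of paired factors an exact two-sided permutation test was used. Given with every library were members with an unadjusted p of at most 0.05, the most abundant member of each role group and 18 members picked by function, and others shown (those without overlap between the groups, for example) were chosen after their values were seen. The members, lists and alternatives were chosen with earlier results of these data known. Sharing of sequence was counted as identical 50-base stretches of GENCODE transcripts, on either strand, with a minimum of 10% of the stretches of either gene. The counting is not stated to use strand, so genes that overlap on opposite strands cannot be told apart. Alternatives covered scaling, filter, pseudocount, variance model, library weights, replicate block, transcript length (loess, span 0.5), summing with genes that share sequence and leaving out each library. Promoter windows came from RefSeq. Python 3.11.15, scipy 1.17.1 and matplotlib 3.10.9 were used. Real-time RT-PCR and imaging data were not analysed here.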

Additional observations from a re-analysis of the deposited data

How the results depend on the processing

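The number of members past an adjusted p of 0.05 in limma was 0 under every alternative and every left-out library except with library quality weights, where it was 1, Eif4ebp1 (0.94, adjusted p 0.0336). With these weights 1 of 47 members and 151 of 11924 genes passed. Counts at an unadjusted p of at most 0.05 moved with the scaling. The 5 higher members were 9 with a total of 1000000, 3 with median-of-ratios and 3 with upper quartile scaling, and the 1 lower member was 0, 2 and 4. All genes moved likewise, to 16.1%, 6.53% and 4.61% higher and 1.61%, 6.42% and 8.08% lower. The total of 1000000 includes the single unannotated row, which held 15.3% to 19.0% of the sum in oEV-EMT and 19.7% to 31.5% in oEV-ctrl. The part of that row in these counts was not tested. The lower count was also 0 with no trend or robust fit (all genes 2.47%) and with the transcript length correction (all genes 2.23%). Leaving out a library gave 3 to 6 higher (all genes 7.88% to 13.9%) and 0 to 1 lower (all genes 1.69% to 4.84%). The 11 members above without overlap were 16 with a total of 1000000 (34.0%, all genes 22.7%). They were 5 with median-of-ratios (10.6%, all genes 9.94%) and 3 with upper quartile scaling (6.38%, all genes 7.59%). In the same order, the 1 below was 1 (2.13%, all genes 2.71%), 5 (10.6%, all genes 10.2%) and 6 (12.8%, all genes 12.5%). With the length correction 9 lay above (19.1%, all genes 18.3%) and 2 below (4.26%, all genes 4.06%). Without 1 library, where fewer values have to separate, there were 12 to 16 above and 1 to 5 below, against 21.8% to 30.6% and 5.89% to 12.6% of all genes. The relative median of 0.0067 was 0.15 without the filter, when 31842 genes, many near 0, enter the median of all genes, and -0.083 to 0.090 with a library left out. The length correction and the summing with genes that share sequence were chosen after seeing the data.

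Libraries with the same number did not deviate together. The correlation of their deviations was 0.119, -0.044 and 0.039 for numbers 1 to 3, and they share only a number. With the replicate block 4 members were higher and 0 lower at an unadjusted p of at most 0.05, and 0 passed the adjusted p, while over all genes 11.2% were higher, 2.36% lower and 21 passed the adjusted p.

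Of 364 values for the 22 named tested members, 339 kept their direction and, where a p-value was computed, their side of the threshold, and 24 turned. Sums with genes that share sequence have no p-value and were judged by direction alone, so Eif1a, at 0.91 in the sum against 0.02, counts as kept. With median-of-ratios scaling Eif1a had -0.17, Eif2s1 -0.026, Eif3m -0.15 and Eif4g1 -0.17. With upper quartile scaling Eif1a had -0.23, Eif2b5 -0.0058, Eif2s1 -0.096, Eif3m -0.22, Eif4ebp2 -0.019, Eif4g1 -0.23, Eif5a -0.040 and Eif6 -0.014. With library weights Eif1a had -0.12 and Eif4g1 -0.16, and with the length correction Eif1a had -0.041 and Eif3m -0.086. With a library left out Eif1 ran from -0.067 to 0.67, Eif1a from -0.11 to 0.10, Eif3m from -0.080 to 0.16, Eif4ebp2 from -0.13 to 0.39 and Eif4g1 from -0.37 to 0.29. Of the within-library ratios, Eif4ebp2 to Eif4e ran from -0.54 to 0.12, Eif5a to Eif5a2 from -0.00097 to 0.41, Eif2s1 to Eif2b5 from -0.30 to 0.074 and Eif1 to Eif1b from -0.36 to 0.13. The cause of these turns was not tested.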

Other observations

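Several rows on chromosome 12 that resemble Eif1a were high in a single library. Gm2022, Gm2035 and Gm2075, annotated as protein-coding but not named as initiation factors, had FPKM of 38.6, 40.9 and 51.3 in oEV-EMT 2 and at most 1.82 in the other 5 libraries. The pseudogene Gm8607 (22.9 in oEV-EMT 2) and Gm16368 (5.22) were at most 0.423 elsewhere. They share from 10.4% to 14.0% of their own 50-base stretches with Eif1a. Summed with Eif1a they gave a log2 difference of 0.91 between the groups, against 0.02 for Eif1a alone. Gm5580 and Gm8994, protein-coding rows on chromosome 6 that share sequence with the helicase gene Eif4a3, had 15.0 and 13.3 in oEV-EMT 2 and at most 1.72 in the other 5.

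Larp1, which binds mRNAs of the translation machinery, was at 14.4 FPKM in oEV-EMT 1, at 1.68 and 1.34 in the other oEV-EMT libraries and between 0.732 and 0.964 in oEV-ctrl. Paip2, an inhibitor of the poly(A)-binding protein, had 143 in oEV-EMT 1 and between 25.2 and 59.4 in the other 5.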
